A study of Mus musculus with 8 samples.

Results

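The Bcl2 family of apoptosis regulators was read in mouse retina from 29 probe sets, groups of short oligonucleotides that each report on a transcript, out of 45037 analysed. They were all the probe sets to which the platform annotation gave only the symbol of 1 of 10 chosen genes. These were the pro-survival genes Bcl2, Bcl2l1 and Mcl1, the effectors Bax and Bak1, and the BH3-only genes Bad, Bid, Bcl2l11, Bbc3 and Pmaip1. Probe sets were found for 9 of the 10, among 18193 genes named on the array. None carried the symbol Bax, which was not analysed here. The samples were 4 injected retinas, whose labels state a compound-based treatment, and 4 control retinas, which were dissected fresh and carry the time 0 d. The labels give neither the compound, dose, route or interval nor the strain, genotype or age, and no sham-injected group was analysed, so injection, compound and tissue handling cannot be told apart. Each sample was on 1 Affymetrix array, and since no label ties a retina to an animal, p-values measure only the spread between these samples, which may be technical.

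The family decides whether the outer mitochondrial membrane stays closed. Pro-survival members hold the effectors Bax and Bak1 in check, BH3-only members are produced or activated by damage and stress and relieve that check, and pores formed by the effectors let cytochrome c into the cytosol, where it activates caspases. In the retina the balance between these groups is known to set the survival of ganglion cells after optic nerve injury and takes part in photoreceptor degeneration. Much of the control acts on the proteins by phosphorylation, cleavage and degradation, which an RNA measurement does not see.

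None of the 7 tested members differed between injected and control retina by the test used, and Bax, Bak1 and Pmaip1 were not tested. Of the 29 probe sets, 18 had enough signal to be tested, and by limma with Benjamini-Hochberg adjustment over all 27022 tested probe sets 0 of the 18 were higher and 0 lower, the smallest adjusted p being 0.709. Over all tested probe sets the share called was also 0% (smallest adjusted p 0.102). Without adjustment 1 of the 18 had p under 0.05 with a positive difference, the probe set for Bbc3, and 0 had it with a negative one. Over all tested probe sets this share was 6.99%, made up of 3.66% higher and 3.33% lower. The injected and control values overlapped at all 18. Over all tested probe sets they did not overlap at 5.07% (2.47% higher, 2.6% lower), so 0 of 18 does not set the family apart. Levels are given throughout as log2(intensity + 16) after quantile normalisation, and differences as injected minus control in log2 units. The floor for testing was a mean level of 8.5 over all arrays. Bbc3 had a control mean below it (8.37) and was tested only through its injected values, so its p is no support for a difference.

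Arrays differed in how far they stood from the others. Injected replicate 3 had the highest deposited median intensity (766 against 495 to 694 on the other arrays) and the lowest weight when limma estimated array weights (0.191 against 0.646 to 1.83). It was the highest of the 8 arrays at 12 of the 18 tested family probe sets, or 66.7%, and at 27.6% of all tested probe sets. It was the lowest at 2 of the 18 and at 29.5% of all tested probe sets. Values without this array are given beside many of the single-gene results below. They are not given for the sign counts and medians of the lists of related genes, nor for the cell type markers. A result with no such value beside it may also depend on this array.

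**Figure D1:**
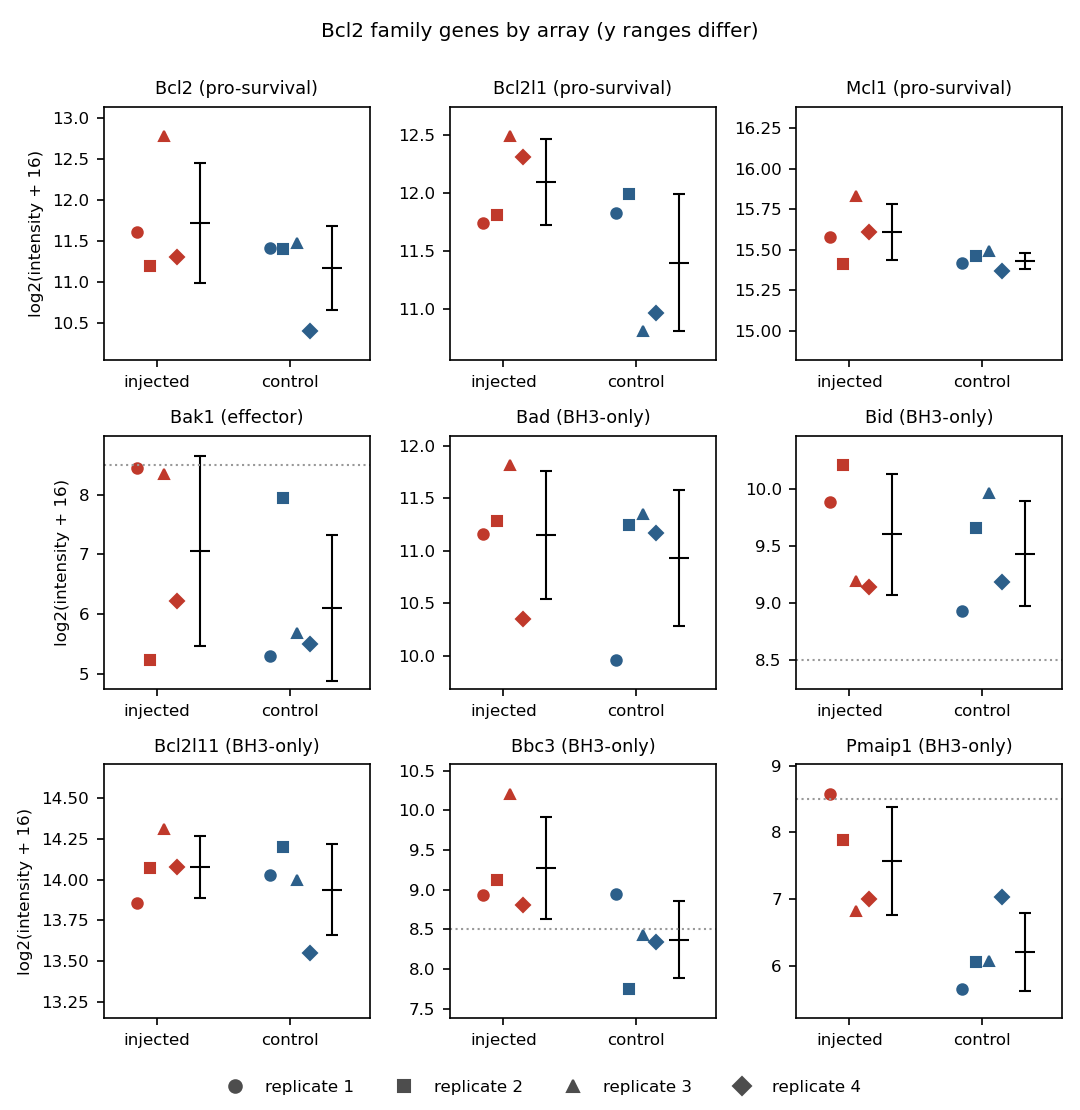
Level of each of the 9 measured family genes, as log2(intensity + 16), at the probe set of highest mean; each symbol is 1 array (n = 4 injected in red, n = 4 control in blue), black bars are mean ± SD, and the dotted line is the testing floor of 8.5. Injected and control values overlap in all 9 panels, and injected replicate 3 is the highest array for Bcl2, Bcl2l1, Mcl1, Bad, Bcl2l11 and Bbc3.

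Bbc3 encodes Puma, a BH3-only protein induced by p53 and by FOXO factors that binds all the main pro-survival members. Its only probe set, 1423315_at, read 8.93, 9.12, 10.21 and 8.81 in injected replicates 1 to 4, against 8.95, 7.75, 8.43 and 8.34 in control replicates 1 to 4. The lowest injected value lay below the highest control value, that of replicate 1, and 2 injected arrays exceeded every control. The means were 9.27 ± 0.64 in injected and 8.37 ± 0.49 in control retina (SD, n = 4 each). The control mean lay below the floor, where signal is dim, so the probe set was tested only through its injected values. The difference was 0.90 ± 0.36 (SE; 95% interval 0.09 to 1.70; limma adjusted p = 0.709, unadjusted p = 0.0324), equal to 1.86-fold on this scale. Without injected replicate 3 it was 0.58 ± 0.27 with an unadjusted p of 0.0648.

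Pmaip1 encodes Noxa, a BH3-only protein that binds chiefly Mcl1 and promotes its degradation. Its only probe set, 1418203_at, was below the floor and was not tested. It read 8.58, 7.88, 6.82 and 7.01 in injected retinas, against 5.66, 6.06, 6.08 and 7.04 in control retinas. The highest control lay above the 2 lowest injected values. The difference of means was 1.36 ± 0.46 (SE), and when the floor was dropped limma gave an unadjusted p of 0.0172 and an adjusted p of 0.747. In contrast to Bbc3, the lowest injected value here was that of replicate 3, and without it the difference was 1.61.

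Bcl2l11 encodes Bim, a BH3-only protein that binds all the main pro-survival members and is made in several splice forms. Of its 5 probe sets 4 were tested, and they did not share a direction. The brightest, 1456005_a_at, read 13.86, 14.07, 14.31 and 14.08 in injected retinas, against 14.03, 14.20, 14 and 13.55 in control retinas, a difference of 0.13 ± 0.20 (SE; adjusted p = 0.854), or 0.06 without injected replicate 3. This placed 3 of 4 injected values inside the control range. The other tested probe sets differed by 0.58 (1435449_at), -0.30 (1435448_at) and -0.53 (1456006_at), with adjusted p from 0.745 to 0.791. The value of 1435448_at rested on injected replicate 3, which read 10.46 against 11.59 to 11.75 in the other injected arrays and 11.41 to 11.80 in controls, and without it the difference was 0.01. At 1456006_at the injected values were 8.52, 9.02, 9.24 and 7.61, against 8.86, 9.24, 9.07 and 9.33 in control retinas. At 1435449_at the difference was 0.31 without injected replicate 3. That probe set had a control mean below the floor (8.41, against 8.99 in injected retinas) and was tested only through its injected values.

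Bad and Bid link the family to other signals. Bad encodes a BH3-only protein that growth factor signalling keeps inactive by phosphorylation and binding to 14-3-3 proteins. Its tested probe set, 1416582_a_at, read 11.16, 11.28, 11.82 and 10.35 in injected retinas, against 9.96, 11.25, 11.35 and 11.17 in control retinas, a difference of 0.22 ± 0.39 (SE; adjusted p = 0.879). A single low array in each group, injected replicate 4 and control replicate 1, set most of the spread, and the difference was -0.10 without control replicate 1 and 0 without injected replicate 3. Bid encodes a BH3-only protein that caspase 8 cleaves, which carries death receptor signals to mitochondria. At 1417045_at it read 9.88, 10.21, 9.19 and 9.14 in injected retinas, against 8.93, 9.66, 9.96 and 9.18 in control retinas. That is a difference of 0.18 ± 0.32 (SE; adjusted p = 0.883), smaller than the SD of either group (0.53 injected, 0.46 control), and it was -0.03 without injected replicate 2 and 0.31 without injected replicate 3. The remaining probe set for Bad and the other 2 for Bid were below the floor, with differences from -0.33 to 0.44.

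Among the pro-survival genes, Bcl2l1 encodes Bcl-xL and a short splice form with the opposite action. It had 1 tested probe set of 4. At 1420888_at the injected values were 11.74, 11.81, 12.49 and 12.31, against 11.83, 11.99, 10.81 and 10.97 in control retinas. The controls fell into a higher and a lower pair, and injected replicates 3 and 4 exceeded every control. Means were 12.09 ± 0.37 in injected and 11.40 ± 0.59 in control retina (SD, n = 4 each). They differed by 0.68 ± 0.32 (SE; 95% interval -0.03 to 1.40; adjusted p = 0.725, unadjusted p = 0.0594). Without injected replicate 3 the difference was 0.55 ± 0.33 (SE, limma unadjusted p = 0.136). The other 3 probe sets were below the floor, with differences of 0.06, 1.06 and 1.70, and the last of them, 1426050_at, read 7.34 to 8.93 in injected against 4.78 to 7.71 in control retinas.

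Bcl2, the founding pro-survival member, had 5 probe sets, 4 of them tested, and the 2 brightest pointed in opposite directions. At 1457687_at the injected values were 11.61, 11.20, 12.78 and 11.30, against 11.41, 11.40, 11.47 and 10.40 in control retinas, a difference of 0.55 ± 0.39 (SE; adjusted p = 0.750). At 1440770_at they were 10.93, 10.77, 9.63 and 10.37, against 11.54, 10.87, 11.01 and 10.76, a difference of -0.62 ± 0.31 (SE; adjusted p = 0.725). Injected replicate 3 was the extreme array in both, and without it the differences were 0.20 and -0.35. The first was 0.29 without control replicate 4. The probe sets 1443837_x_at and 1422938_at gave -0.12 and -0.11 (-0.29 and -0.27 without injected replicate 3), and the untested 1437122_at gave 0.94. The probe sets of a gene can lie in different transcript forms, and their places in the gene were not analysed here.

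Mcl1, a pro-survival protein of rapid turnover, had 6 probe sets, all tested. At 1437527_x_at it read 15.58, 15.41, 15.83 and 15.61 in injected retinas, against 15.42, 15.46, 15.49 and 15.37 in control retinas. That placed 3 of 4 injected values above every control, and the control SD was 0.05. The difference was 0.17 ± 0.17 (SE; 95% interval -0.20 to 0.55; adjusted p = 0.787), or 1.13-fold, and it was 0.10 without injected replicate 3. The other 5 probe sets differed by -0.06 to 0.30, with adjusted p from 0.750 to 0.982, and by -0.13 to 0.26 without injected replicate 3. Of the 6, 3 have names ending in x_at and can bind related transcripts.

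Bak1, the only effector with probe sets here, was dim. Its probe sets had mean levels of 6.58 and 6.32, both below the floor. At 1418991_at the values were 8.45, 5.23, 8.34 and 6.22 in injected retinas, against 5.30, 7.94, 5.68 and 5.50 in control retinas, a difference of 0.96 ± 0.87 (SE). Both groups held high and low arrays, and without either injected replicate 1 (0.50) or injected replicate 3 (0.53) the difference was smaller. Leaving out injected replicate 2 or control replicate 2 gave 1.57. At 1425716_s_at the difference was 0.38 ± 0.84 (SE).

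**Figure D2:**
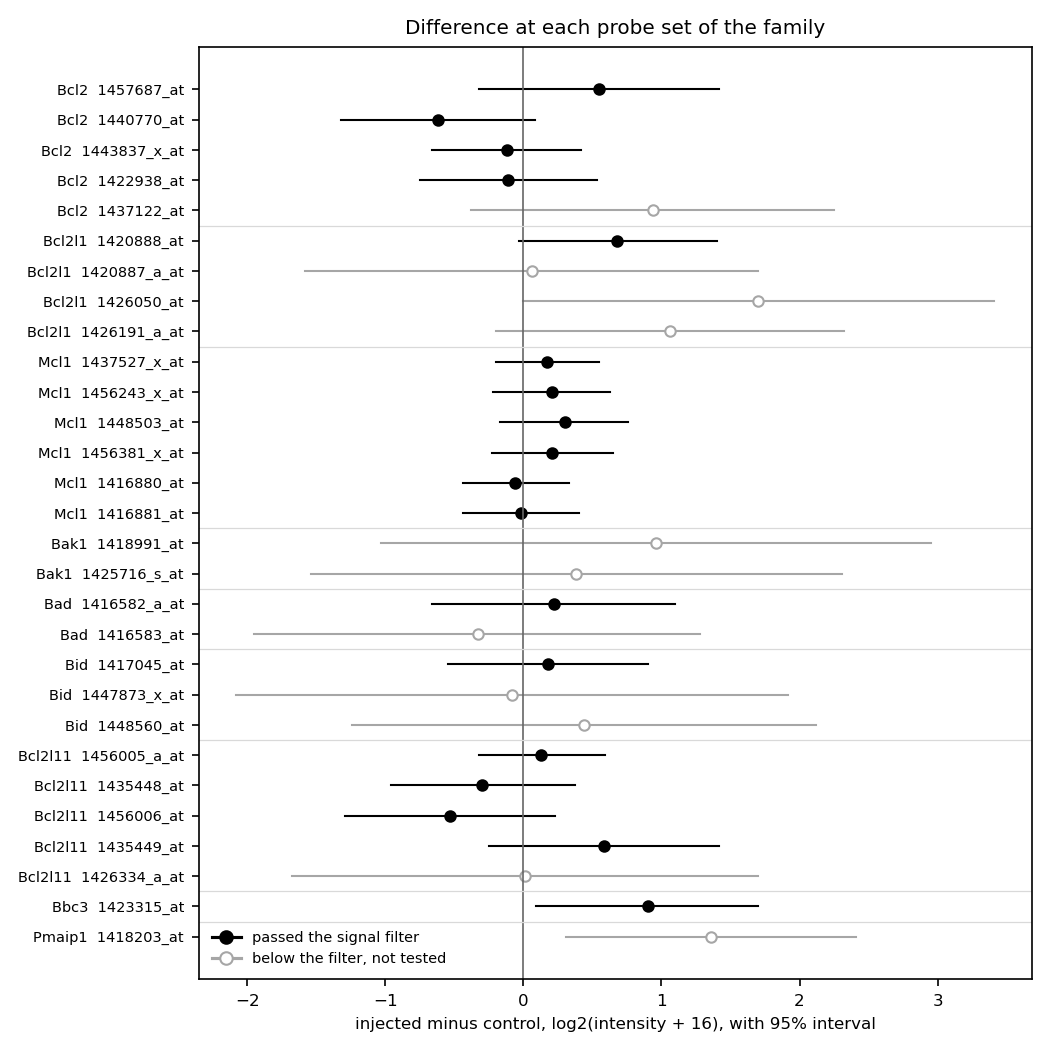
Injected minus control difference in log2 units at each of the 29 family probe sets, with 95% intervals from limma (n = 4 arrays each); filled black points passed the signal filter (18) and open grey points did not (11, intervals from the fit with no filter). Of the tested intervals, 1 excludes 0, that of Bbc3, and Bcl2, Mcl1 and Bcl2l11 have points on both sides of 0.

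Read at the probe set with the highest mean, 9 genes had a value and 7 were tested. All 7 tested differences were positive, from 0.13 for Bcl2l11 to 0.90 for Bbc3, with a median of 0.22. Over all 12886 tested genes read in the same way 48.5% were positive, with a median of -0.01. The count depended on the probe set read, and Bbc3 was in it only because its injected values raised its mean above the floor. Over the 18 tested probe sets 11 differences were positive and 7 negative, with a median of 0.17, against a median of -0.02 and 47.6% positive over all tested probe sets. Without injected replicate 3 the median over the 18 was 0.06, against 0 over all tested probe sets. Without it 6 of the 7 genes had positive differences, Bad stood at 0, and the median of the 7 was 0.20. Bcl2, Mcl1 and Bcl2l11, the 3 genes with several tested probe sets, had differences of both signs. Among these 7 genes the sign also turned in 3 (Bad, Bid and Bcl2l11) when the processing or an array was changed. The 7 were the 3 pro-survival genes and 4 of the BH3-only genes, so the positive differences lay in both opposing groups, and 0 genes of either passed.

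Across 17 alternatives the adjusted p of the 7 tested genes ran from 0.517 to 1 and passed in none. The probe set or sets under an unadjusted p of 0.05 changed with the setting. Bbc3 was under it in 11 of the 17, and was not under a trended robust prior (0.0547), with array weights (0.0634), or without injected replicate 3 (0.0648) or control replicate 2 (0.0917), 3 (0.0541) or 4 (0.0618). Bcl2l1 was under it with the trended robust prior (0.0435), without control replicate 1 (0.0417) and without control replicate 2 (0.0234). Negative differences under it were those of Bcl2 1440770_at without injected replicate 1 (-0.79, limma unadjusted p = 0.0382) and of Bcl2l11 1456006_at without injected replicate 3 (-0.75, limma unadjusted p = 0.0482). Bcl2l11 1435449_at was under it without control replicate 4 (0.83, limma unadjusted p = 0.0499), and Pmaip1 with no filter.

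**Figure D3:**
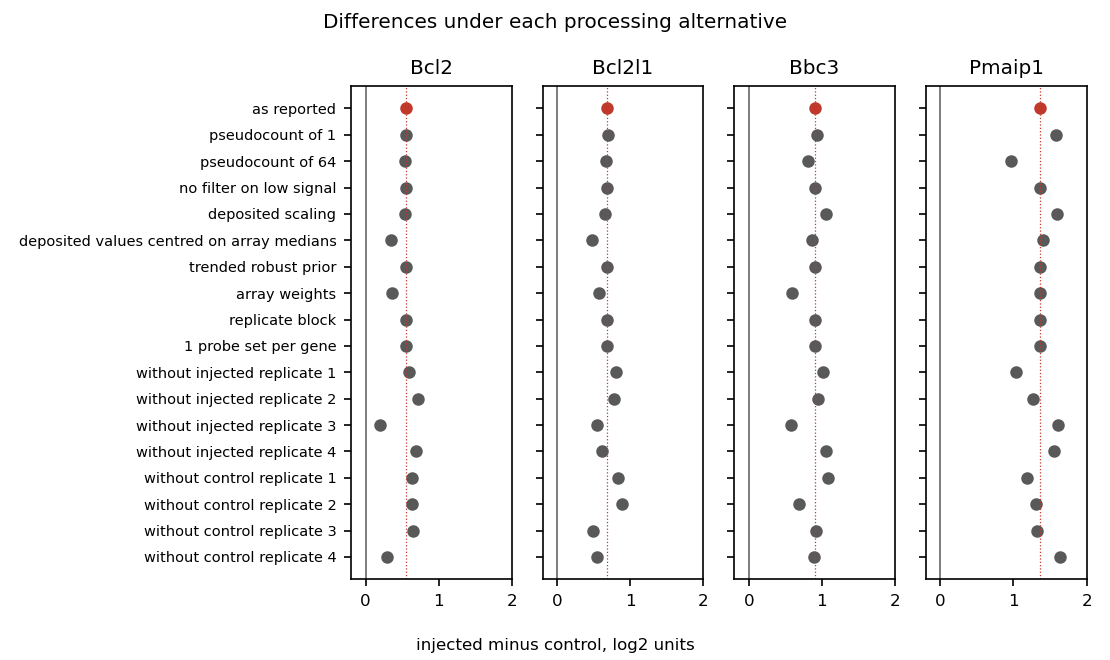
Injected minus control difference in log2 units of Bcl2, Bcl2l1, Bbc3 and Pmaip1 at the probe set with the highest mean, as reported (red, with a dotted line) and under each of 17 alternatives (grey). All points lie above 0; leaving out injected replicate 3 gives 0.20 for Bcl2, 0.55 for Bcl2l1, 0.58 for Bbc3 and 1.61 for Pmaip1.

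Genes around the family were read from 5 lists at 1 probe set each, and 0 of their 65 tested genes passed the adjusted threshold. Of the 65, 3 had a positive and 1 a negative difference at an unadjusted p under 0.05 by limma, and groups did not overlap at 3 positive and 2 negative ones. Over all tested probe sets 6.99% were under that p and 5.07% did not overlap, so the lists lay near those shares. The signs below stand beside 48.5% positive over all tested genes. Other Bcl2-like genes had 8 tested of 15, 4 positive and 4 negative, with a median of -0.08 and 0 under an unadjusted p of 0.05 at the probe sets read. Bnip3, a mitochondrial protein induced by low oxygen, read 16.20, 16.27, 16.15 and 16.23 in injected retinas, against 16.32, 16.28, 16.64 and 16.42 in control retinas. All injected values lay below all controls by a small margin, and the difference of -0.20 ± 0.16 (SE; adjusted p = 0.769) was small. The BH3-only gene Bmf differed by 0.32 ± 0.30 (0.02 without injected replicate 3), Bcl2l10 by 0.35 ± 0.23 (0.19 without it) and the effector-like Bok by -0.23 ± 0.16. A dimmer probe set for Bmf, 1458325_x_at, differed by 1.27 ± 0.52 (SE, limma adjusted p = 0.712, unadjusted p = 0.0359), and an untested one by -0.31. At 1458325_x_at 3 of 4 injected values lay above every control, and the controls read 6.76, 8.57, 8.91 and 9.65. The control mean of 8.47 was below the floor, so this probe set was tested only through its injected values. Its name ends in x_at, so it can bind related transcripts.

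Downstream of the pore, the list of released proteins, apoptosome parts, caspases and caspase inhibitors had 15 tested genes, 4 positive and 11 negative, with a median of -0.12. Casp8, the initiator caspase that cleaves Bid, had the smallest p in the list at the probe sets of highest mean. It read 9.90, 9.79, 9.91 and 9.73 in injected retinas, against 9.55, 9.07, 9.19 and 9.37 in control retinas, so all injected values lay above all controls. The difference was 0.54 ± 0.18 (SE; adjusted p = 0.638, unadjusted p = 0.0130) and 0.51 without injected replicate 3. Diablo, which neutralises inhibitors of apoptosis, differed by 0.26 ± 0.20 and Birc3, an inhibitor of apoptosis, by -0.66 ± 0.41 (0.12 and -0.34 without injected replicate 3). An untested probe set of each had the opposite sign, -1.28 for Diablo (1425768_at) and 0.11 for Birc3 (1425223_at).

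Xiap, a direct inhibitor of caspases, differed by -0.44 ± 0.37 (SE; adjusted p = 0.773) at its brightest probe set, which was -0.02 without injected replicate 3. Its 7 probe sets were all negative, from -0.17 to -1.16. The last value, at 1450231_a_at, was picked out after its values were seen (± 0.22 SE; adjusted p = 0.370, unadjusted p = 0.000506).

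Upstream, the list of p53 and its targets had 12 tested genes, 4 positive and 8 negative, with a median of -0.11. Aen, an exonuclease induced by p53, read 10.19, 10, 10.77 and 10.30 in injected retinas, against 9.91, 9.53, 9.97 and 9.69 in control retinas, a difference of 0.54 ± 0.22 (SE; adjusted p = 0.709). Zmat3, an RNA-binding target of p53, read 12.86, 13.04, 12.18 and 12.94 in injected retinas, against 13.13, 13.18, 13.33 and 13.40 in control retinas, a difference of -0.51 ± 0.22 (SE; adjusted p = 0.713). Their groups did not overlap and their directions were opposite, and without injected replicate 3 they were at 0.39 and -0.32. The other 3 probe sets of Aen gave negative differences, of which 1 was tested. Cdkn1a, the cell cycle inhibitor p21, differed by 0.30 ± 0.27 and Sesn1 by -0.22 ± 0.20, which was -0.09 without injected replicate 3, with other tested probe sets from -0.54 to 0.05.

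The list of transcription factors known to act on family genes had 10 tested genes, 9 positive and 1 negative, with a median of 0.18. This count of signs depended on injected replicate 3, the highest array for Foxo1 (13.61), Foxo3 (14.95) and E2f1 (11.08). The other injected arrays read 12.30 to 12.63, 13.91 to 14.19 and 9.01 to 9.64, against control means of 12.64, 14.15 and 9.49. For Hif1a, the negative one, injected replicate 3 was the lowest array (15.72). Jun, which induces Bcl2l11 in neurons deprived of growth factor, read 12.58, 12.64, 12.47 and 12.89 in injected retinas, against 11.86, 12.07, 12.13 and 12.33 in control retinas. All injected values lay above all controls, and the difference was 0.55 ± 0.18 (SE; adjusted p = 0.658, unadjusted p = 0.0150), with 0.61 when injected replicate 3 was left out. Stat3, which induces Bcl2l1 and Mcl1, differed by 0.40 ± 0.20 (adjusted p = 0.725), and its 4 probe sets were all positive. Myc, picked out after its values were seen, was below the floor and untested; it read 7.45, 5.26, 4.99 and 6.39 in injected retinas, against 8.24, 8.17, 7.59 and 8.23 in control retinas. Rela and Stat5b differed by 0.23 ± 0.20 and 0.26 ± 0.25 (0.16 for Stat5b without injected replicate 3).

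Binding partners and enzymes that modify or degrade family proteins had 20 tested genes, 12 positive and 8 negative, with a median of 0.02 and 0 under an unadjusted p of 0.05. The kinases Mapk8 and Mapk9, which phosphorylate Bcl2l11, differed by 0.30 ± 0.24 and 0.31 ± 0.20 (0.14 and 0.16 without injected replicate 3). Huwe1, a ubiquitin ligase of Mcl1, differed by 0.53 ± 0.43 and by 0.03 without that array. Bag1, a partner of Bcl2, differed by -0.23 ± 0.18 (-0.15 without it). The other tested probe sets of these kinases and of Huwe1 differed by other amounts, from -0.23 to 0.47 for Mapk8, from -0.55 to -0.03 for Mapk9 and from -0.84 to 0.15 for Huwe1.

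**Figure D4:**
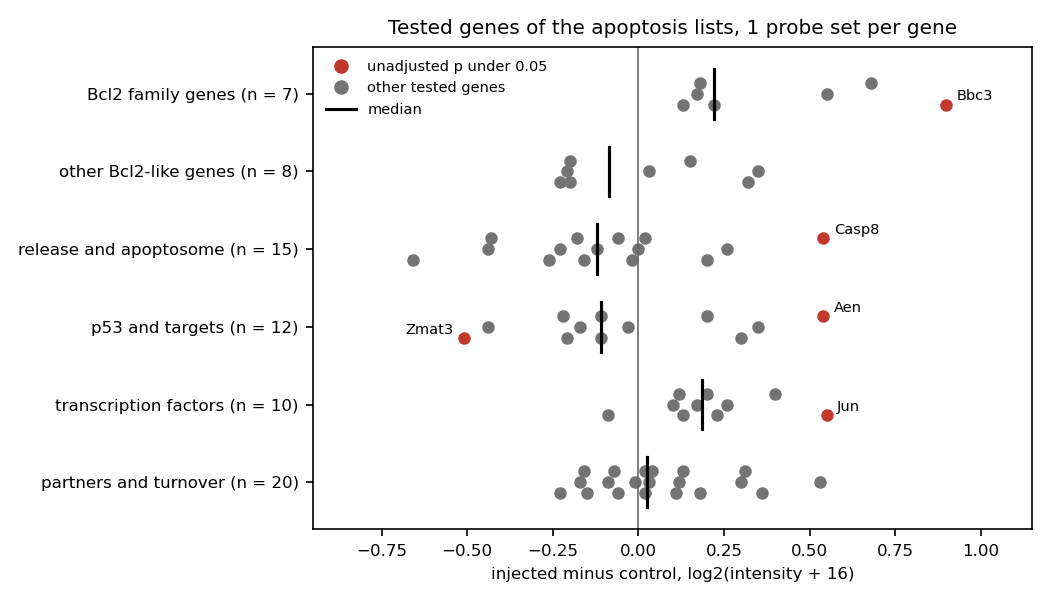
Injected minus control difference in log2 units of tested genes, 1 probe set per gene, in the Bcl2 family and in 5 lists of related genes (n in brackets is the number of genes); red points have an unadjusted p under 0.05 and black bars are list medians. Bbc3, Casp8, Aen, Zmat3 and Jun are red, and no gene passed after adjustment over all probe sets.

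Marker lists of cell types were summed as intensities. Those of cones, ganglion cells, Müller glia and microglia did not overlap between the groups, and the others overlapped. Such sums weigh the brightest genes most. By mean log2 level per array only cones did not overlap (11.61 to 12.83 injected, 12.98 to 13.14 control). Ganglion cells (12.80 to 13.21 injected, 13.16 to 13.24 control), Müller glia (13.40 to 13.81 and 13.80 to 14.09) and microglia (10.03 to 10.87 and 9.47 to 10.09) overlapped. These means include genes below the floor, 6 of 17 for microglia and leukocytes. Groups did not overlap at 7 of the 11 tested genes of that list, all higher. The counts, all lower, were 4 of 7 for cones, 2 of 7 for ganglion cells and 1 of 6 for Müller glia. For rods the count was 1 of 6 and for pigment epithelium 1 of 8, again lower. It was 0 of 6 for bipolar and amacrine cells and 1 of 5, higher, for lens. Over all tested probe sets 2.47% were higher and 2.6% lower without overlap. By limma 0 of the 56 tested marker genes passed the adjusted threshold. Over all tested genes 48.5% had positive differences. In bulk tissue, fewer cells of a type and less RNA per cell cannot be told apart. Retinal markers were present in all samples, with rod genes summing to 128000 to 216000 intensity units on injected and 198000 to 211000 on control arrays. Cone genes summed to 42900 to 92500 on injected and 94000 to 104000 on control arrays, with 7 of 7 differences negative. Ganglion cell genes summed to 117000 to 135000 on injected and 141000 to 149000 on control arrays, again with 7 of 7 negative. These differences ran from -0.01 (Isl1), -0.09 (Thy1) and -0.14 (Pou4f1) to -0.56 (Sncg). Bipolar and amacrine genes summed to 61100 to 73000 on injected and 70500 to 85400 on control arrays, and Müller glia genes to 130000 to 156000 on injected and 158000 to 170000 on control arrays. Of 17 microglia and leukocyte genes 11 were tested and 10 of these had positive differences, the list summing to 92100 to 220000 on injected and 44500 to 71500 on control arrays. Lens genes summed to 4840 to 82800 on injected and 1490 to 15800 on control arrays, and pigment epithelium genes to 34900 to 109000 on injected and 80100 to 345000 on control arrays. Negative differences were not particular to cones and ganglion cells. They were found at 5 of 6 rod, 5 of 6 bipolar and amacrine, 5 of 6 Müller glia and 8 of 8 pigment epithelium genes tested. The medians were -0.31, -0.36, -0.31 and -1.06, against -0.77 for cones and -0.26 for ganglion cells. All 5 tested lens genes were positive. Of 5 blood genes 2 had probe sets, both below the floor, and no marker was at 0. The part of these cell types in the family's values was not tested.

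For the array pattern of Bbc3, the member with the smallest p among those above the floor, the 5 tested genes with the highest Pearson correlation across the 8 arrays were Chrnb4 (0.975), 2210406O10Rik (0.972), Tirap (0.972), Taf1d (0.960) and Gm7969 (0.958). They were ranked among 12885 other genes, and all 5 shared the high value in injected replicate 3. Without that array the correlations were 0.885 to 0.947. This is a description, in which the points share arrays and normalisation. Chrnb4, a nicotinic receptor subunit, read 11.09, 11.26, 12.30 and 10.86 in injected retinas, against 10.81, 10.20, 10.65 and 10.65 in control retinas.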

How the data were processed

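The deposited table holds linear intensities, 1 for each probe set on each array. The authors' scaling left the mean of each array, without the lowest and highest 2% of probe sets, at 2500; no software or genome build is named in the sources used here, and such scaling hides any change in total RNA. Groups and replicate numbers came from the sample titles. After removal of 64 control probe sets, deposited intensities were quantile-normalised because array medians differed by 1.55 times, and log2(intensity + 16) was computed from the normalised values. Probe sets at or above the 40th percentile of mean level (8.5, about 345 intensity units) were tested with limma 3.58.1 (R 4.3.3; lmFit and eBayes), with Benjamini-Hochberg adjustment over 27022 probe sets and a threshold of 0.05. The added 16 understates changes of dim genes. Detection calls were not used, and the number of arrays limits precision. Same-numbered injected and control arrays did not deviate together (correlations -0.03 to 0.08), so no pairing was used.

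The members, lists and tests were chosen with earlier results of these data known. The genes named are all members, read mainly at the probe set with the highest mean, the up to 4 tested genes of each list with the smallest p, the 5 genes most like Bbc3, and cell markers. The fit was tested on simulated data. The differences added there were larger than any at the tested family probe sets. It therefore does not show whether differences of the family's size could be detected. The 17 alternatives were pseudocounts of 1 and 64, no filter, 2 other scalings, a trended robust prior, 1 probe set per gene, array weights (statmod 1.5.0), a replicate block and leaving out each array in turn. Figures used matplotlib 3.10.9 in Python 3.11.15.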

Additional observations from a re-analysis of the deposited data

Results flagged for a closer look

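A value was picked out where it stood far from the other 3 of its group by Dixon's test at its 95% level. Of 98 groups of 4 checked, 13 were picked out, and chance gives about 1 in 20, or 5%. Injected replicate 3 accounted for 7 of the 13. In the family these were Mcl1 1456381_x_at (14.60 against 14.01 to 14.04 in the other injected arrays) and Bcl2l11 1435448_at (10.46 against 11.59 to 11.75). Among the listed genes they were Huwe1 (15.86 against 13.75 to 13.92), Mapk8 (13.65 against 12.96 to 13.00), Mapk9 (12.86 against 12.25 to 12.32), Diablo (12.22 against 11.61 to 11.70) and Xiap (12.91 against 14.53 to 14.65). Injected replicate 4 was low for Bad 1416583_at (5.68 against 8.46 to 8.90) and high for Bok (10.37 against 10.10 to 10.14).

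In the control group, replicate 1 was low for Bad 1416582_a_at (9.96 against 11.17 to 11.35) and for Bcl2l11 1426334_a_at (4.88 against 7.21 to 7.63). Replicate 2 was high for Bak1 1418991_at (7.94 against 5.30 to 5.68), and replicate 4 was low for Bcl2 1457687_at (10.40 against 11.40 to 11.47).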

How the results depend on the processing

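The count of family probe sets passing the adjusted threshold was 0 higher and 0 lower under all 17 alternatives. Over all probe sets it was 0 and 0 except with array weights (7 higher, 1 lower) and without injected replicate 4, so that leaving out each array in turn gave 0 to 31 higher and 0 to 7 lower; the cause was not tested. At an unadjusted p under 0.05, 990 probe sets were higher and 899 lower, against 645 and 1404 when deposited values were centred on array medians. With the deposited scaling they were 1313 and 626, so the balance of directions moved with the scaling. Single-gene differences kept their sign in all but 4 of 119 values of the 7 tested genes: Bcl2l11 was at -0.07 with centring on array medians, Bid at -0.03 without injected replicate 2, and Bad at 0 without injected replicate 3 and at -0.10 without control replicate 1. Leaving out each array in turn gave -0.03 to 0.35 for Bid and -0.10 to 0.49 for Bad. With the replicate number as a block, Bbc3 was at 0.90 (adjusted p = 0.728) and the family count was 0 and 0; 1 of 4 injected arrays correlated best with the control of its own number. Dim signal limits Bak1 and Pmaip1, which were below the floor.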
